A study of Mus musculus with 6 samples.

Results

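The genes described here are 56 genes of the extracellular matrix and of the stromal cells that make it, namely collagens, basement membrane proteins, elastic fibre proteins, enzymes that process and crosslink collagen, proteoglycans, adhesive glycoproteins and 3 stromal surface proteins. They were found by gene symbol among the 34745 genes of a table of read counts, and all 56 symbols matched. The genes were selected on their fold changes between the same DMSO and KAT8-inhibitor libraries, in which stromal genes had been seen to fall unevenly, so every fold change and count of called members below is a description of that choice and not a test of it. The libraries are of macrophages that had been differentiated from mouse bone marrow in culture under M-CSF (20 ng/ml), a macrophage growth factor. All cells were wild type, and they were stimulated for 6 h with R848 (100 ng/ml), a synthetic agonist of the RNA-sensing receptor TLR7. Before R848 they received either DMSO, the solvent control (3 libraries), or an inhibitor of KAT8, a histone acetyltransferase (3 libraries). The labels name neither the compound nor its dose or the length of the pretreatment, and every library received R848, so no unstimulated level is given here. A bone marrow culture is not a pure population, and the labels give no sort or gate.

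Extracellular matrix is a network of secreted proteins. Fibrillar collagens assemble from procollagen chains that are hydroxylated and folded in the endoplasmic reticulum, trimmed at both ends outside the cell and then crosslinked by lysyl oxidases. Elastin is laid down on fibrillin microfibrils, basement membranes are built from laminins, type IV collagen, nidogen and perlecan, and small leucine-rich proteoglycans bind collagen fibrils and set their spacing. Fibroblasts, pericytes and other mesenchymal cells, which are part of bone marrow stroma, are the classical producers of most of these proteins, while macrophages are known to secrete fibronectin and osteopontin and to take up and degrade matrix.

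Levels are given on the usual CPM scale, the count of a gene relative to the total of its library, adjusted with edgeR's TMM factors, and the 6 libraries held between 18441352 and 25089320 counts on genes. With these totals, 3 counts in a library correspond to 0.116 to 0.166 CPM, which is the limit that a count of 0 allows for counting error. DMSO replicate 1 stood apart from the other DMSO libraries for these genes: it was the highest of the 3 DMSO libraries for 46 of the 56 (82.1%), against 36.8% of all 13815 genes with enough counts to be tested. The members' median and the number called lower are given without it as well. So are the fold changes of Col1a1, Col1a2 and Hspg2 and the ratio of Col1a1 to Col1a2. The summed level and the fold changes of most other members are given with it only. Means are followed by the SD over the 3 libraries of a group. The macrophage label was met by high levels of Lyz2, Cd68 and Csf1r in all 6 libraries, described with the other marker lists further on. Of the 8 macrophage markers listed, Adgre1 (916 and 611 CPM on average under DMSO and the inhibitor), Cd14 (890 and 465) and Itgam (249 and 190) were also high. Of the exon length of Itgam, 68.7% overlaps exons of Gm49368 on the same strand, so strand cannot separate their reads there. Mertk (35.3 and 18.7 CPM) and Fcgr1 (3.45 and 1.76 CPM) were much lower.

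None of the 56 genes was at 0 in all 6 libraries, and 55 had enough counts to be tested. Their summed level was 20793, 17302 and 17875 CPM under DMSO against 9396, 8611 and 9073 CPM under the inhibitor. Every inhibitor library lay below every DMSO library, and the DMSO mean was 2.07 times the inhibitor mean (18657 ± 1873 and 9026 ± 395 CPM, SD, n = 3 each). In bulk samples such as these, fewer cells of a type and less RNA per cell cannot be told apart. Of the 55, 50 were called lower with the inhibitor, 1 was called higher and 4 were not called, by edgeR's quasi-likelihood test at an adjusted p under 0.05 over all genes. Over all 13815 tested genes the inhibitor lowered 3667 (26.5%) and raised 3446 (24.9%), so calls were common in this comparison. With library totals alone in place of TMM, the split over all genes was 2843 lower and 4887 higher, and the median over all genes moved up by 0.11 on the log2 scale. The members' count with that scaling was 46 lower and 2 higher. For 49 members the 2 groups of libraries did not overlap with the inhibitor lower, and for 1 with the inhibitor higher, against 30.3% of all tested genes in each direction.

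The median log2 fold change (inhibitor over DMSO) of the 55 was -0.96, with the middle 50% of them between -1.37 and -0.66, beside 0.01 for all tested genes with the middle 50% between -0.32 and 0.28. Without DMSO replicate 1 the median was -0.91 and 49 members were called lower. The members were spread over a wide range, from -3.45 for Eln to 0.63 for Col5a3. By size, 6 members (Eln, Col11a1, Fmod, Thy1, Postn and Fbln5) had a log2 fold change of -2 or lower, 19 lay between -2 and -1, 21 between -1 and -0.5, 5 between -0.5 and 0, and 4 above 0. Across the 55, Spearman's rho of the log2 fold change was 0.07 with GC content of the longest transcript and -0.05 with exon length. Both are given as a description over genes that share the same 6 libraries.

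**Figure D1:**
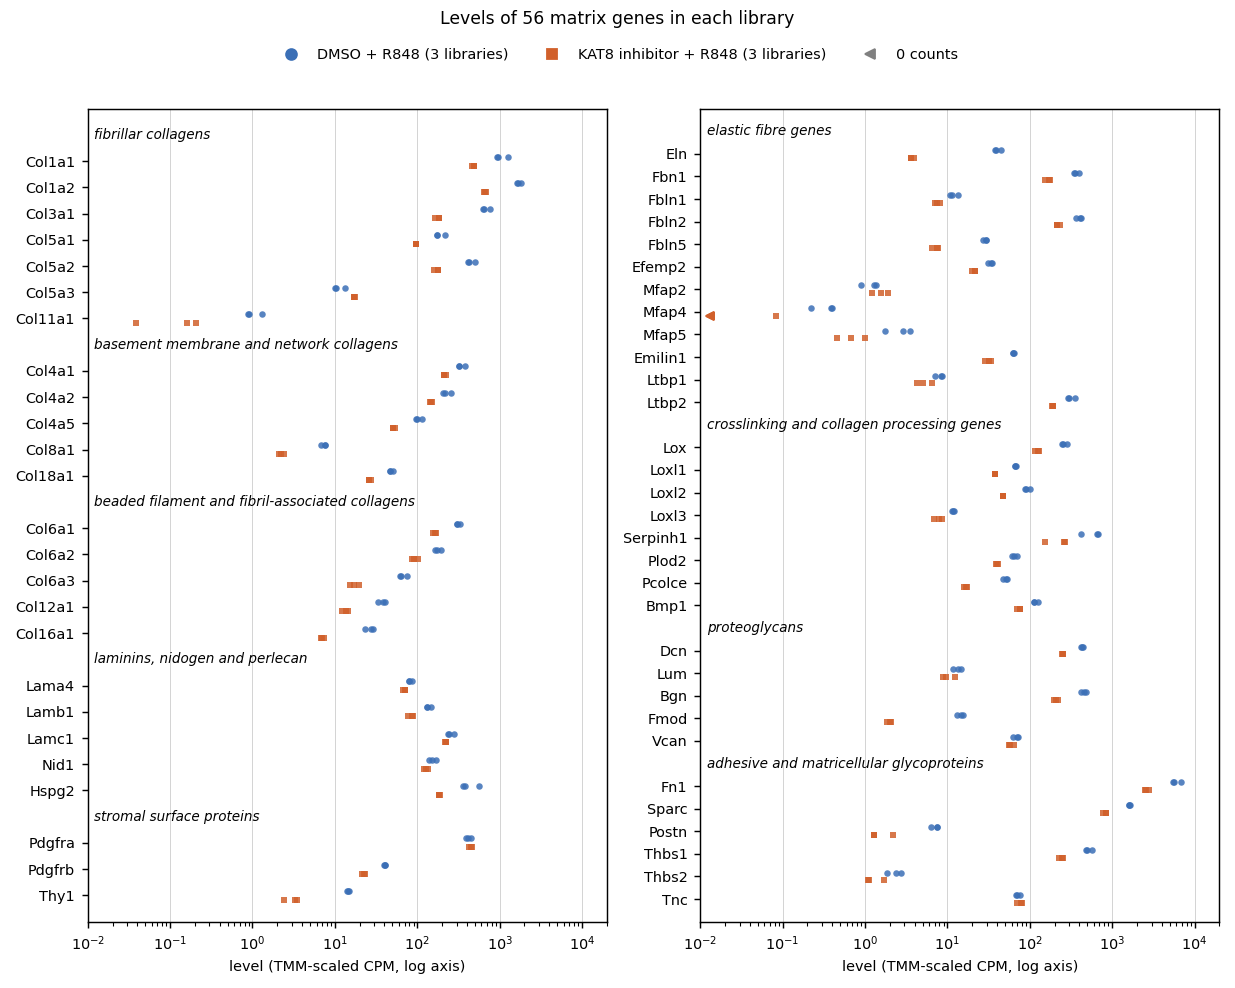
Level of each of the 56 genes in every library, as TMM-scaled CPM on a log axis, in 9 classes. Circles are the 3 DMSO libraries, squares the 3 KAT8-inhibitor libraries, and an arrow at the left edge marks libraries with 0 counts, which occur for Mfap4 alone. Squares lie to the left of circles for most genes, by a wide gap for Eln (40.6 against 3.70 CPM on average), and to the right for Col5a3.

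**Figure D2:**
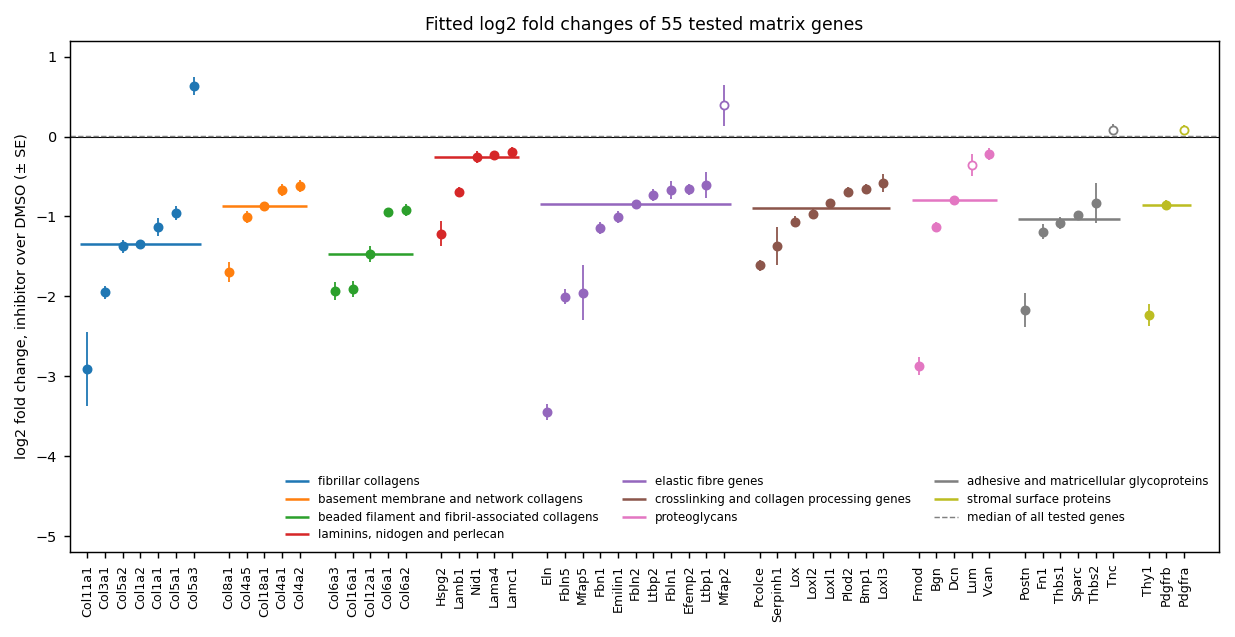
Fitted log2 fold change, inhibitor over DMSO, of the 55 tested genes, with its standard error as the vertical bar and the class median as the horizontal line. Filled points passed an adjusted p of 0.05 over all genes and open points (Mfap2, Lum, Tnc and Pdgfra) did not. The class medians run from -1.47 for beaded filament and fibril-associated collagens to -0.25 for laminins, nidogen and perlecan.

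The upstream sequences of 5 members at different places in this range are shown because these genes moved to different degrees. They are Col3a1, Col6a3 and Fmod, which had log2 fold changes of -1.95, -1.94 and -2.87, Col5a3, the member that was called higher, and Pdgfra, which was not called. Each stretch holds the 150 bases before the start of the gene in the RefSeq annotation of GRCm38.p6, 5′ to 3′ on the gene's own strand, with matches to the searched motifs in capitals, where a match on the other strand appears as its reverse complement.
Col3a1 (chr1:45311388-45311537, plus strand): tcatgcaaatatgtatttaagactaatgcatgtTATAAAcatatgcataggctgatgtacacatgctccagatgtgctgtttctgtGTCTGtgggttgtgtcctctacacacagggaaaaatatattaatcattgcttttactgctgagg
Col6a3 (chr1:90843972-90844121, minus strand): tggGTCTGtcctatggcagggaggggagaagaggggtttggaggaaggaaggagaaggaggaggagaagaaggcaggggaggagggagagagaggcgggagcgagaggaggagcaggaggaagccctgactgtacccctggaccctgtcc
Fmod (chr1:134037104-134037253, plus strand): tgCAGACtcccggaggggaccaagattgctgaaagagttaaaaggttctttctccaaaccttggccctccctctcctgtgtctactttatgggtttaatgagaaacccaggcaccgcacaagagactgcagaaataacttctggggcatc
Col5a3 (chr9:20815068-20815217, minus strand): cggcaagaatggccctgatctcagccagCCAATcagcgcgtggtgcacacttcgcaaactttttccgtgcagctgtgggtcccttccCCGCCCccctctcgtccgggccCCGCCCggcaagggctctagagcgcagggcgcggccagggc
Pdgfra (chr5:75152101-75152250, plus strand): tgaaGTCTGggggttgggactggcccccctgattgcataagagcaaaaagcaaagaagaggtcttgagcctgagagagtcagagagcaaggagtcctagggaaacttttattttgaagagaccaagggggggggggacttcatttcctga
In the Col3a1 stretch the capitals mark a TATA box at -117 to -112 and a SMAD half-site at -64 to -60, counted back from the start. The Col5a3 stretch holds a CCAAT box at -122 to -118 and GC boxes at -63 to -58 and -41 to -36. The stretches of Col6a3, Fmod and Pdgfra each hold a SMAD half-site, at -147 to -143, -148 to -144 and -146 to -142. GC content was 37.3% for Col3a1, 49.3% for Fmod, 50.7% for Pdgfra, 62.7% for Col6a3 and 68.7% for Col5a3.

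RefSeq promoters were at hand for 36 of the 56 members, and the 250 bases before the start were searched on both strands for 7 motifs, where a match to 1 motif may overlap a match to another. A gene counts once if any of its promoters holds the motif, for the members and for the 27025 genes behind all 32851 promoters. The GC box GGGCGG was found in 25 members (69.4%) and in 35.4% of all genes, or 32.7% of all promoters. The SMAD half-site CAGAC was in 24 members (66.7%) and 45.8% of genes (42.2% of promoters), and CCAAT in 41.7% of members and 37.5% of genes (33.8% of promoters). The TATA box TATAAA occurred in 4 members (11.1%) and 14.3% of genes (12.4% of promoters). The TEAD site GGAATG was in 5 members (13.9%) and 14.4% of genes (12.6% of promoters), and the AP-1 site TGANTCA in 1 member, Col6a1 (2.78%), and 7.82% of genes (6.75% of promoters). The CArG box was found in no member and in 1.62% of genes (1.47% of promoters). A match is a run of letters in this window and not a measured binding site. The shares over all genes include genes without enough counts to be tested here. No share over tested genes alone was taken, so a difference from all genes may not be particular to the members.

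Fibrillar collagens, the chains that build the large banded fibres, fell in 6 of 7 cases, and their median log2 fold change of -1.35 spanned -2.91 to 0.63. Col1a1 (ENSMUSG00000001506, chr11:94936224-94953042 in mm10, plus strand) encodes the first chain of type I collagen and had 1253, 924 and 953 CPM under DMSO against 484, 459.9 and 485 CPM under the inhibitor. Its partner chain Col1a2 (ENSMUSG00000029661, chr6:4504814-4541544, plus strand) had 1828, 1606 and 1666 CPM under DMSO against 687, 647 and 671 CPM under the inhibitor. In both cases all 3 inhibitor libraries lay far below all 3 DMSO libraries, with log2 fold changes of -1.13 (SE 0.11) for Col1a1 and -1.35 (SE 0.057) for Col1a2. Among the DMSO libraries replicate 1 was the highest for both, and without it the log2 fold changes were -0.98 and -1.29. Type III collagen, the fine fibre of reticular and vascular tissue, comes from Col3a1 (chr1:45311538-45349706, plus strand), which had 767, 632 and 644 CPM under DMSO against 183, 166 and 182 CPM under the inhibitor. That is a log2 fold change of -1.95 (SE 0.081), or 3.85-fold lower, a larger fall than that of either type I chain. Col5a2, a chain of the type V collagen that nucleates fibrils, had 503, 414 and 428 CPM under DMSO against 179.8, 159.8 and 179 CPM under the inhibitor (log2 fold change -1.37, SE 0.082), with no overlap between the groups. Its partner Col5a1 fell from a mean of 188 to 96.5 CPM (log2 fold change -0.96, SE 0.086).

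A different direction was seen for Col5a3 (ENSMUSG00000004098, chr9:20770050-20815067, minus strand), the less widespread chain of type V collagen, which had 13.3, 10.1 and 10.2 CPM under DMSO against 17.0, 17.7 and 17.1 CPM under the inhibitor. All 3 inhibitor libraries were higher than all 3 DMSO libraries, and the log2 fold change was 0.63 (SE 0.11). The counts behind these levels were 240, 234 and 234 under DMSO against 441, 444 and 413 under the inhibitor. Col11a1, a chain of the type XI collagen of cartilage, was near the limit of detection in the inhibitor libraries. It had 0.883, 0.906 and 1.31 CPM under DMSO against 0.0385, 0.160 and 0.207 CPM under the inhibitor, from counts of 16, 21 and 30 under DMSO against 1, 4 and 5 under the inhibitor. The inhibitor libraries held 1 to 5 counts, around the limit of 3 that a count of 0 allows, so the fitted log2 fold change of -2.91 (SE 0.46) is uncertain in size.

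The basement membrane and network collagens moved less than the fibrillar chains as a class, with a median of -0.87 and all 5 members called lower. Col4a1 and Col4a2 encode the 2 chains of the common form of type IV collagen, the sheet-forming collagen of basement membranes. Col4a1 had 382, 319 and 322 CPM under DMSO against 211, 209 and 222 CPM under the inhibitor. The level of Col4a2 was 253, 207 and 216 CPM under DMSO against 149, 142 and 152 CPM under the inhibitor. Every inhibitor library was below every DMSO library for both, and the log2 fold changes were close to each other, -0.67 (SE 0.072) and -0.61 (SE 0.074). Col4a5, an X-linked chain of a more restricted type IV form, had 116, 95.5 and 100.1 CPM under DMSO against 54.1, 50.2 and 50.4 CPM under the inhibitor (log2 fold change -1.01, SE 0.075). The largest fall of the class was that of Col8a1, a short-chain network collagen made by endothelium and smooth muscle, at 7.68, 7.59 and 6.76 CPM under DMSO against 2.43, 2.12 and 2.24 CPM under the inhibitor (log2 fold change -1.69, SE 0.13). Col18a1, the precursor of endostatin, had 50.6, 47.2 and 46.9 CPM under DMSO against 26.3, 25.6 and 27.2 CPM under the inhibitor, and the 3 libraries of each group differed little from each other (log2 fold change -0.87, SE 0.060).

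Beaded filament and fibril-associated collagens had the lowest class median, -1.47, and all 5 were called lower. Type VI collagen forms beaded microfilaments around cells from 3 different chains. Its Col6a1 chain had 326, 305 and 305 CPM under DMSO against 165, 157 and 167 CPM under the inhibitor. The Col6a2 chain had 192, 165 and 175 CPM under DMSO against 103, 85.9 and 92.1 CPM under the inhibitor. The fall was alike for these chains, -0.94 (SE 0.046) and -0.92 (SE 0.081). The long Col6a3 chain had 75.1, 63.0 and 61.1 CPM under DMSO against 19.6, 15.3 and 17.2 CPM under the inhibitor, which is 3.83-fold lower, at a log2 fold change of -1.94 (SE 0.11). Col12a1, which decorates the surface of type I fibrils, had 41.1, 33.1 and 37.9 CPM under DMSO against 14.6, 12.2 and 13.6 CPM under the inhibitor (log2 fold change -1.47, SE 0.10). Col16a1, another fibril-associated collagen, fell from 26.5 ± 3.0 to 7.07 ± 0.36 CPM (log2 fold change -1.90, SE 0.10).

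Laminins, nidogen and perlecan had the class median nearest 0. It was -0.25, and although all 5 were called lower, Lamc1, Lama4 and Nid1 were 1.14-fold to 1.19-fold lower. Lamc1, the gamma chain shared by most laminins, had 279.8, 243 and 238 CPM under DMSO against 222, 219.5 and 226 CPM under the inhibitor. The groups did not overlap, but the gap was small (log2 fold change -0.19, SE 0.063), and the call was lost with library totals, after removal of a GC and length trend, and when any inhibitor library was left out. Lamb1, the beta chain of the same heterotrimer, had 145, 130.1 and 130.5 CPM under DMSO against 87.8, 77.9 and 85.2 CPM under the inhibitor (log2 fold change -0.69, SE 0.063), with a wide gap between the groups. Nid1, which links laminin to type IV collagen, had 169, 139 and 152 CPM under DMSO against 136, 121 and 129 CPM under the inhibitor (log2 fold change -0.25, SE 0.076), and lost its call with library totals and without DMSO replicate 3, inhibitor replicate 2 or inhibitor replicate 3. Lama4, an alpha chain of vascular basement membranes, went from 82.1 ± 4.6 to 69.7 ± 2.3 CPM (log2 fold change -0.23, SE 0.055) and lost its call with library totals. Hspg2 encodes perlecan, the large heparan sulfate proteoglycan, and had 557, 356 and 381 CPM under DMSO against 191, 185 and 182 CPM under the inhibitor. DMSO replicate 1 was well above the other DMSO libraries, the inhibitor libraries were all lower than those, and the log2 fold change was -1.21 (SE 0.15), or -0.99 without that library.

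Of the 12 elastic fibre genes, 11 were tested and 10 of these were called lower, around a median of -0.85. Eln (ENSMUSG00000029675, chr5:134702593-134747323, minus strand) encodes tropoelastin, the monomer of the elastic core, and had 45.2, 39.0 and 37.5 CPM under DMSO against 3.62, 3.59 and 3.90 CPM under the inhibitor. The libraries of each group were close to each other and 10.9-fold apart between the group means (log2 fold change -3.45, SE 0.10), the lowest fold change of the 55 tested genes. Fbn1, the main fibrillin of the microfibril scaffold, had 399, 357 and 348 CPM under DMSO against 178, 152 and 169 CPM under the inhibitor (log2 fold change -1.15, SE 0.074), without overlap. Of the exon length of Fbn1, 20.1% lies opposite exons of Gm9913, of Ltbp2 9.34% opposite D030025P21Rik, and of Eln 3.30% opposite Gm30003. Whether the counting used strand is not given in the sources used here, and without it reads from the opposite gene cannot be told apart from the gene's own. Fbln2, a fibulin of basement membranes and elastic tissue, had 414, 409 and 362 CPM under DMSO against 214, 213 and 229.8 CPM under the inhibitor (log2 fold change -0.85, SE 0.061). Fbln5, a fibulin needed for elastic fibre assembly, fell further, from 28.8 ± 1.6 to 7.19 ± 0.65 CPM (log2 fold change -2.0, SE 0.091). Ltbp2, a microfibril-binding member of the latent TGF-beta binding family, had 355, 301 and 291 CPM under DMSO against 193, 192 and 187 CPM under the inhibitor (log2 fold change -0.73, SE 0.073). Emilin1, a glycoprotein at the elastin and microfibril interface, had 62.6, 64.7 and 61.8 CPM under DMSO against 34.1, 31.5 and 28.2 CPM under the inhibitor (log2 fold change -1.01, SE 0.074), and the groups were again apart.

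The small microfibril-associated glycoproteins were present at low levels. Mfap2 had 0.883, 1.29 and 1.35 CPM under DMSO against 1.58, 1.2 and 1.91 CPM under the inhibitor, with the groups overlapping, and was not called (log2 fold change 0.39, SE 0.26). Mfap5, by contrast, was called lower, at 2.73 ± 0.89 CPM with DMSO and 0.712 ± 0.268 with the inhibitor (log2 fold change -1.95, SE 0.34). Mfap4 was not tested for want of counts, which were 4, 9 and 9 under DMSO against 0, 0 and 2 under the inhibitor. Fbln1, Efemp2 and Ltbp1 completed the class with log2 fold changes of -0.67, -0.66 and -0.61.

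All 8 crosslinking and collagen processing genes were called lower, with a median of -0.90. Lox, the founding lysyl oxidase that crosslinks collagen and elastin, had 286, 246 and 249 CPM under DMSO against 129, 117 and 127 CPM under the inhibitor (log2 fold change -1.07, SE 0.070), without overlap. Its paralog Loxl2, which acts on type IV collagen among others, had 101, 88.7 and 88.6 CPM under DMSO against 47.6, 47.0 and 47.8 CPM under the inhibitor (log2 fold change -0.96, SE 0.060). Loxl3, another paralog, had 11.4, 12 and 11.6 CPM under DMSO against 8.70, 6.79 and 7.96 CPM under the inhibitor (log2 fold change -0.58, SE 0.11). Both were lower in every inhibitor library, and 11.6% of the exon length of Loxl3 lies opposite Htra2. Loxl1, the paralog needed for elastic fibre renewal, went from 67.0 ± 1.1 to 37.7 ± 0.56 CPM (log2 fold change -0.83, SE 0.047), so the 4 enzymes spanned -1.07 to -0.58. Serpinh1 encodes HSP47, the procollagen chaperone of the endoplasmic reticulum, and had 681, 418 and 656 CPM under DMSO against 269, 153 and 256 CPM under the inhibitor. Replicate 2 was the lowest library of each group, the groups still did not overlap, and the log2 fold change was -1.37 (SE 0.24). Pcolce, an enhancer of the removal of the procollagen C-terminal end, had 52.0, 47.7 and 52.9 CPM under DMSO against 17.1, 16.0 and 16.9 CPM under the inhibitor, with close replicates and the largest fall of this class (log2 fold change -1.61, SE 0.067). Bmp1, the protease that makes that cut, had 125, 113 and 111 CPM under DMSO against 75.8, 75.4 and 70.1 CPM under the inhibitor (log2 fold change -0.66, SE 0.059). Plod2, the lysyl hydroxylase of collagen telopeptides, fell from 64.5 ± 4.5 to 39.9 ± 0.86 CPM (log2 fold change -0.69, SE 0.062).

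Proteoglycans spanned log2 fold changes of -2.87 to -0.21, and 4 of 5 were called lower. Decorin and biglycan are related small proteoglycans that bind collagen and TGF-beta. The decorin gene Dcn had 448, 421 and 434 CPM under DMSO against 251, 247 and 255 CPM under the inhibitor (log2 fold change -0.79, SE 0.041). The biglycan gene Bgn had 481, 422 and 458 CPM under DMSO against 217, 199 and 206 CPM under the inhibitor (log2 fold change -1.13, SE 0.059). Neither overlapped between the groups, and Bgn fell further. Fmod (ENSMUSG00000041559, chr1:134037254-134048277, plus strand) encodes fibromodulin, a fibril-binding proteoglycan of the same family, and had 15.3, 13.2 and 14.6 CPM under DMSO against 2.04, 1.84 and 1.99 CPM under the inhibitor. That is 7.32-fold lower (log2 fold change -2.87, SE 0.12), with 3 close libraries in each group. Lum, the gene of lumican, fell short of the threshold at 13.2 ± 1.3 CPM with DMSO and 10.3 ± 1.8 with the inhibitor, where the groups overlapped (log2 fold change -0.36, SE 0.14). The call for Lum was lower with DESeq2 and without inhibitor replicate 3. Vcan, which encodes the large hyaluronan-binding proteoglycan versican, had 72.1, 62.7 and 69.7 CPM under DMSO against 56.9, 55.7 and 63.7 CPM under the inhibitor, and inhibitor replicate 3 was above DMSO replicate 2. The change was small (log2 fold change -0.21, SE 0.073), and it lost its call without DMSO replicate 1 or 3 and without inhibitor replicate 1 or 2, as well as with library totals and after removal of a GC and length trend.

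The adhesive and matricellular glycoproteins included Fn1 and Sparc, the members with the highest levels per exon length, and 5 of 6 were called lower around a median of -1.03. Fn1 (ENSMUSG00000026193, chr1:71585520-71653200, minus strand) encodes fibronectin, the main adhesive glycoprotein of provisional matrix, and had 6896, 5488 and 5616 CPM under DMSO against 2801, 2519 and 2564 CPM under the inhibitor. Every inhibitor library was far below the lowest DMSO library, and the log2 fold change was -1.19 (SE 0.092). Sparc, a collagen-binding matricellular protein, had 1654, 1595 and 1583 CPM under DMSO against 840.0, 777 and 833 CPM under the inhibitor (log2 fold change -0.98, SE 0.046). Thbs1, thrombospondin, which activates latent TGF-beta, had 573, 483 and 496 CPM under DMSO against 254, 228 and 249 CPM under the inhibitor (log2 fold change -1.09, SE 0.073). These 3 genes fell to similar degrees and without overlap. Postn, the gene of periostin, a matricellular protein of tendon and bone surfaces, had 7.51, 7.37 and 6.23 CPM under DMSO against 1.27, 1.28 and 2.16 CPM under the inhibitor (log2 fold change -2.17, SE 0.21). Thbs2, another thrombospondin, had 2.30 ± 0.45 and 1.3 ± 0.35 CPM under DMSO and the inhibitor (log2 fold change -0.83, SE 0.25), and its call was lost under the replicate block and without DMSO replicate 2 or 3 or inhibitor replicate 2 or 3. Tnc (chr4:63959785-64047015, minus strand), the gene of the de-adhesive hexamer tenascin-C, had 76.7, 67.8 and 70.8 CPM under DMSO against 78.2, 70.2 and 80.5 CPM under the inhibitor. The groups overlapped and Tnc was not called (log2 fold change 0.09, SE 0.068), though it was called higher, at 0.21, once a GC and length trend was removed.

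The 3 stromal surface proteins differed from each other. Pdgfra (ENSMUSG00000029231, chr5:75152292-75198215, plus strand), a PDGF receptor and a common marker of fibroblasts and mesenchymal progenitors, had 448, 387 and 418 CPM under DMSO against 459.8, 419 and 445 CPM under the inhibitor. The groups overlapped and the log2 fold change was 0.08 (SE 0.061), not called. With library totals alone it was 0.19, and after removal of a GC and length trend 0.16, and both were called higher. Of its exon length, 6.21% lies opposite Gm42802 and Gm42803. Pdgfrb, the related receptor of pericytes and fibroblasts, had 40.4, 40.9 and 39.8 CPM under DMSO against 21.2, 23.5 and 22.3 CPM under the inhibitor, well apart between groups (log2 fold change -0.85, SE 0.062). Thy1 (CD90), a surface glycoprotein of fibroblasts and of T cells, had 14.8, 14.3 and 14.0 CPM under DMSO against 2.39, 3.43 and 3.32 CPM under the inhibitor, which is 4.72-fold lower (log2 fold change -2.24, SE 0.14).

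Divided by exon length, the levels of the members can be ordered. In the DMSO libraries Fn1 was first at 513 ± 67 CPM per kb, followed by Sparc at 425 ± 10, Serpinh1 at 240 ± 60, Col1a1 at 159 ± 28 and Col1a2 at 137 ± 9.3. The libraries of Serpinh1 and Col1a1 overlapped in this level, as did those of Col1a1 and Col1a2, while those of Fn1 and Sparc did not. By their means these 5 held the same places under the inhibitor, from 225 ± 13 CPM per kb for Fn1 to 53.8 ± 1.6 for Col1a2. There the libraries of Fn1 and Sparc overlapped, with Sparc the higher in replicate 3, as did those of Serpinh1 and Col1a1, while those of Col1a1 and Col1a2 did not. The order of Col1a1 and Col1a2 depends on the length used. With the longest annotated transcript Col1a2 was the higher, at mean Col1a1 to Col1a2 ratios of 0.551 with DMSO and 0.643 with the inhibitor. Other genes changed place. Pdgfra went from place 15 (41.7 ± 3.0 CPM per kb) to place 6 (44.0 ± 2.0), Col3a1 from place 10 (69.4 ± 7.6) to place 19 (18 ± 0.98), and Eln from place 39 (5.01 ± 0.51) to place 50 (0.457 ± 0.021).

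Chains that assemble into the same molecule were compared with each other within each library, per exon length. The ratio of Col1a1 to Col1a2 was 1.3, 1.09 and 1.08 under DMSO against 1.33, 1.35 and 1.37 under the inhibitor, so the groups did not overlap. DMSO replicate 1 was close to the inhibitor values, and without it the DMSO mean was 1.09 in place of 1.16. Within type V collagen the ratio of Col5a1 to Col5a2 was 0.488, 0.468 and 0.462 under DMSO against 0.600, 0.685 and 0.615 under the inhibitor. For type IV collagen the ratio of Col4a1 to Col4a2 was 1.34 ± 0.023 and 1.29 ± 0.023 (SD, n = 3 each). Col6a1 to Col6a2 gave 3.36 ± 0.15 and 3.31 ± 0.25, with overlapping libraries. The ratio of Col6a3 to Col6a1 fell from 0.0777 ± 0.0059 to 0.0389 ± 0.0041, and that of Lamb1 to Lamc1 from 0.445 ± 0.013 to 0.313 ± 0.017, each without overlap. These are descriptions of the same fold changes as above. The absolute ratios depend on which transcript length is used. With the longest annotated transcript Col1a1 to Col1a2 was 0.551 with DMSO and 0.643 with the inhibitor, below 1 in both groups.

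**Figure D3:**
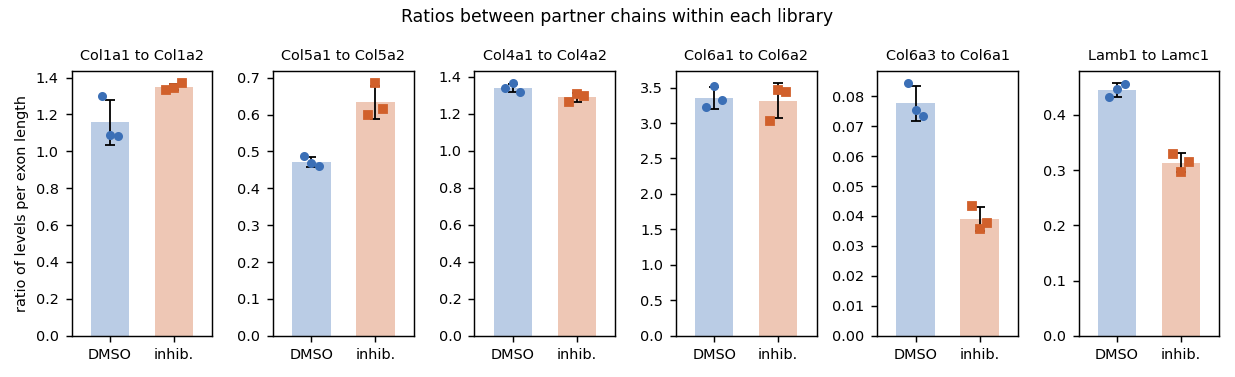
Ratio of length-scaled levels between partner chains in each library. Bars are the mean of 3 libraries, starting at 0, with the SD, and points are single libraries (circles DMSO, squares inhibitor). The ratios of Col4a1 to Col4a2 and of Col6a1 to Col6a2 differ little between groups, while Col6a3 to Col6a1 goes from 0.0777 to 0.0389.

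Some members are neighbours in the genome, by the GENCODE M21 annotation of mm10. Col4a1 and Col4a2 lie head to head on chromosome 8 with starts 21 bases apart, at 11312826 and 11312805, and had log2 fold changes of -0.67 and -0.61. Col6a2 and Col6a1, 85161 bases apart on chromosome 10, had -0.92 and -0.94. Col3a1 and Col5a2 lie tail to tail 24614 bases apart on chromosome 1 and had -1.95 and -1.37. Dcn and Lum lie 46984 bases apart on chromosome 10 and had -0.79 and -0.36, of which the second was not called. No other listed gene lies between the members of any of these pairs.

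The rest of the matrix machinery was read from a list of 105 other genes, of which 7 were at 0 in all libraries and 75 were tested. Of these 75, 43 were called lower, 5 higher and 27 were not called, with a median log2 fold change of -0.61. Over all tested genes 26.5% were called lower and 24.9% higher, and the sublist counts below stand beside the same shares. The list was drawn up with earlier results of these libraries known. Among 13 other tested collagens, 6 were lower and 1 higher. Col4a6, a type IV chain, had 32.1, 25.3 and 25.2 CPM under DMSO against 12.2, 11.9 and 12.8 CPM under the inhibitor (log2 fold change -1.16, SE 0.11). Col24a1, a minor fibrillar collagen, had 23.2, 17.8 and 18.8 CPM under DMSO against 26.8, 25.9 and 28.0 CPM under the inhibitor and was called higher (log2 fold change 0.44, SE 0.10). Col6a4 had the largest called fall of the list, with counts of 33, 29 and 29 under DMSO against 3, 3 and 0 under the inhibitor, a level in the inhibitor libraries at or under the limit of a count of 0.

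Among genes of collagen folding, modification and cleavage in the same list, 11 of 21 tested were lower and 2 higher, around a median of -0.25. P4hb, the protein disulfide isomerase that is also a subunit of prolyl hydroxylase, had 895, 869.5 and 878 CPM under DMSO against 727, 704 and 713 CPM under the inhibitor (log2 fold change -0.30, SE 0.038). Colgalt1, which glycosylates collagen lysines, had 495, 545 and 515 CPM under DMSO against 398, 391 and 397 CPM under the inhibitor (log2 fold change -0.39, SE 0.046). Both sets of libraries were apart, by much less than those of Serpinh1 or Pcolce. Of 8 other elastic fibre genes 5 were lower. The named genes of this sublist, Emilin2 and Ltbp3, were not called. Emilin2, a relative of Emilin1, had 175, 192 and 182 CPM under DMSO against 169, 166 and 171 CPM under the inhibitor. Ltbp3, a latent TGF-beta binding protein, had 125, 122 and 113 CPM under DMSO against 119.5, 121 and 112 CPM under the inhibitor, and the groups of Ltbp3 overlapped.

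Of 9 other basement membrane genes 4 were lower and 5 were not called. Nid2 had 145, 114 and 117 CPM under DMSO against 72.5, 65.2 and 73.0 CPM under the inhibitor (log2 fold change -0.83, SE 0.095). Agrn, the gene of agrin, had 106, 86.7 and 85.7 CPM under DMSO against 99, 102 and 102 CPM under the inhibitor, with overlapping groups, and was not called. Of 4 other proteoglycans 2 were lower and 1 was higher. Ogn, the gene of the small proteoglycan osteoglycin, was lower at 25.2, 18.8 and 20.4 CPM under DMSO against 11.7, 11.2 and 12.3 CPM under the inhibitor. Srgn, the granule proteoglycan of blood cells, was not called at 178, 253 and 243 CPM under DMSO against 193, 198 and 196 CPM under the inhibitor. Of 13 other matricellular proteins 9 were lower. Spp1, osteopontin, which macrophages secrete, had 3416, 3557 and 3710.2 CPM under DMSO against 2238, 2805 and 2578 CPM under the inhibitor (log2 fold change -0.49, SE 0.081). Ccn1, a matricellular protein of growth-factor-stimulated cells, had 131, 127 and 129.9 CPM under DMSO against 83.1, 70.8 and 77.8 CPM under the inhibitor (log2 fold change -0.74, SE 0.061). Tgfbi, a TGF-beta-induced adhesive protein, was the largest rise of the list, at 16.1, 18.5 and 16.1 CPM under DMSO against 37.2, 37.8 and 35.1 CPM under the inhibitor (log2 fold change 1.12, SE 0.077). Collagen receptors were called lower in 6 of 7 cases, among them Itgb1, the shared beta integrin chain, at 1253, 1246 and 1259.6 CPM under DMSO against 913, 912 and 915 CPM under the inhibitor (log2 fold change -0.46, SE 0.036). Ddr1, a collagen-binding kinase, had 139, 132 and 131 CPM under DMSO against 71.1, 77.8 and 69.9 CPM under the inhibitor (log2 fold change -0.88, SE 0.054). The libraries of the groups were apart for both.

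Markers of cells that a bone marrow culture can hold moved unevenly, many of them lower and others unchanged or higher. Their part in the fold changes above was not tested. The counts of called markers stand beside 26.5% lower and 24.9% higher over all tested genes. Fibroblast markers outside the 56 genes summed to 1084, 1056 and 1080.3 CPM under DMSO against 796, 771 and 820.0 CPM under the inhibitor, a ratio of 1.35 between the group means, with 7 of 11 tested markers lower and 4 not called. Of the 15 listed, 3 (Ogn, Ddr2 and Col14a1) also stand in the list of other matrix genes. Cdh11, a mesenchymal cadherin, had 245, 229 and 236 CPM under DMSO against 116, 107 and 111 CPM under the inhibitor (log2 fold change -1.09, SE 0.048). Prrx1, a transcription factor of limb and marrow mesenchyme, had 22.0, 19.3 and 19.5 CPM under DMSO against 22.0, 20.3 and 20.0 CPM under the inhibitor and was not called. Pdpn, podoplanin, had 602, 631 and 637 CPM under DMSO against 534, 523 and 561 CPM under the inhibitor (log2 fold change -0.21, SE 0.045). Pdpn alone made up 623 of the mean sum of 1073 CPM under DMSO, and 540 of 796 CPM under the inhibitor. The ratio of 1.35 is therefore weighted towards this 1 gene, which was itself 1.16-fold lower. Dpt, Pi16, Lepr and Clec3b had at most 9 counts in any library.

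Smooth muscle and pericyte markers summed to 1139.7, 1111 and 1094 CPM under DMSO against 253, 215 and 251 CPM under the inhibitor, a ratio of 4.65, which is larger than that of the members. Of 7 tested, 5 were lower and Notch3 was higher. Acta2, smooth muscle actin, had 482, 452 and 451 CPM under DMSO against 52.5, 41.8 and 55.7 CPM under the inhibitor (log2 fold change -3.21, SE 0.10), and Rgs5 had 0 counts in 5 of the 6 libraries. The sum was almost all Acta2, Tagln and Des, with means of 462, 305 and 335 CPM under DMSO. Each other marker of this list had a mean of 6.59 CPM or less in either group. Of the exon length of Tagln, 67.9% lies opposite Gm48529 and Pcsk7, and whether the counting used strand is not known. Summed macrophage markers were 11855, 13527 and 12604 CPM under DMSO against 7635, 7634 and 7557 CPM under the inhibitor, with 6 of 8 lower. Lyz2, lysozyme, had 8087, 9299.5 and 8387 CPM under DMSO against 4219.5, 4197 and 4147 CPM under the inhibitor. Lyz2 alone made up 8591 of the mean sum of 12662 CPM under DMSO, and 4188 of 7609 CPM under the inhibitor. The fall of the macrophage sum is therefore largely that of this 1 gene. The M-CSF receptor gene Csf1r had 443, 504 and 473 CPM under DMSO against 461, 458 and 468 CPM under the inhibitor. Cd68, a lysosomal glycoprotein, had 1299, 1585 and 1625 CPM under DMSO against 1704, 1679 and 1634 CPM under the inhibitor, and neither Csf1r nor Cd68 was called.

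Markers of other cell types were low in sum. Endothelial markers summed to 6.17 to 6.68 CPM with DMSO and 4.59 to 4.77 with the inhibitor, with Emcn at 0 in all libraries and at most 1 count of Tek or Erg in any. Kdr was the highest of them, at means of 3.97 and 2.57 CPM under DMSO and the inhibitor, and was called lower. Bone and cartilage markers summed to 18.5 to 25.1 and 22.9 to 24.3 CPM, with Ibsp at 0 and at most 1 count of Acan or Col2a1. Most of this sum was Sox9 (means of 10.2 and 10.7 CPM under DMSO and the inhibitor) and Runx2 (8.60 and 10.6 CPM), neither of them called. Alpl (3.44 and 1.95 CPM) was called lower. Adipocyte markers were at 0 in the DMSO libraries and reached 0.346 CPM with the inhibitor, megakaryocyte markers summed to 14.9 to 18.4 and 11.9 to 13.3 CPM with Gp9 at 0, neutrophil markers to 1.00 to 1.16 and 0.279 to 0.462 CPM with Ly6g and Elane at 0, and lymphocyte markers to 1.18 to 1.6 and 0.847 to 1.08 CPM. The megakaryocyte sum was almost all Pf4, at means of 15.6 and 11.9 CPM under DMSO and the inhibitor, which was called lower. The epithelial sum of 12.5 to 13.9 and 0.578 to 1.29 CPM was almost all Krt14 in the DMSO libraries.

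**Figure D4:**
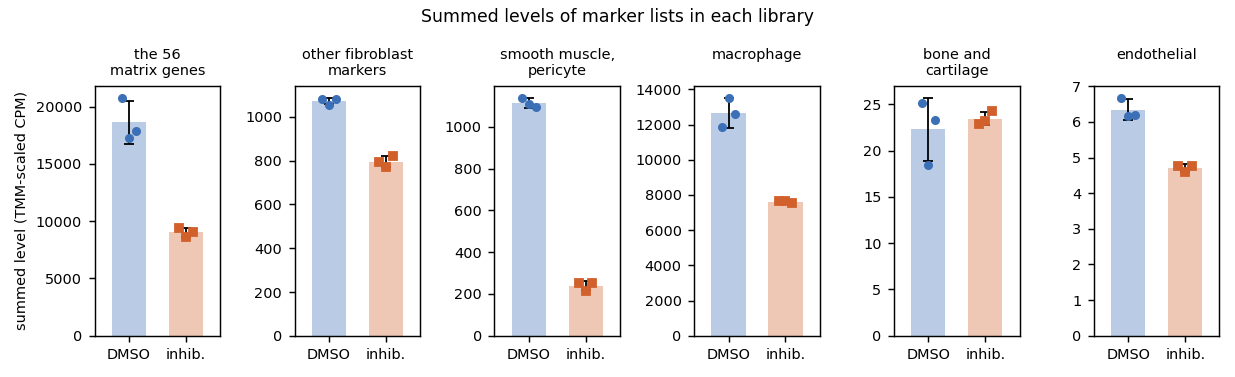
Summed TMM-scaled CPM of the 56 genes and of 5 marker lists in each library. Bars are the mean of 3 libraries, starting at 0 on separate scales, with the SD, and points are single libraries (circles DMSO, squares inhibitor). The smooth muscle and pericyte sum shows the largest ratio between the groups of these panels (1115 against 240 CPM, a ratio of 4.65), and the bone and cartilage sums overlap. The macrophage sum is mostly Lyz2, and the sum of other fibroblast markers is mostly Pdpn.

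The sign of the log2 fold change was the same for each of the 55 genes under every alternative in which it was tested. Of the 50 called lower, 44 kept the call in all alternatives in which they were tested, and 6 lost it in some (Lama4, Lamc1, Nid1, Vcan, Thbs2 and Ltbp1, the last at an adjusted p limit of 0.01), while Col5a3 was called higher in all of them. The labels do not say whether the 3 libraries of a group came from separate cultures or animals, so the errors may be of technical origin only.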

How the data were processed

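Messenger RNA captured on beads was sequenced in 6 libraries of mouse macrophages, per the labels' protocols. The table deposited by the authors holds whole-number read counts per gene. The submitters' processing notes name HISAT2, StringTie 1.3.0, edgeR and the mm10 genome. The tool that made the counts is not named as such, and its strand setting is not given in the sources at hand. Symbols, exon lengths and positions came from GENCODE M21, matched by gene identifier, and 478 identifiers had no symbol. Promoters came from RefSeq (GRCm38.p6).

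The counts were fitted with edgeR 4.0.16 (TMM scaling, filterByExpr with a minimum count of 10, quasi-likelihood test) in R 4.3.3, all 6 libraries in 1 model with pretreatment as its term, and p-values were Benjamini-Hochberg adjusted over 13815 genes. The fitting script was tested on simulated data. The members and all lists were chosen with earlier results of these data known, so no p-value is given for members or lists. A replicate-copy check over gene counts gave a chi-square per degree of freedom of 9.25 to 14.3 within groups, and none of the 6 was treated as a copy. Values in every library are given for up to 4 of the most abundant tested members of each class and for its lowest and highest fold change at 1 CPM or more. Of the other matrix genes, the 2 most abundant of each sublist and the largest called fall and rise are named, and the marker genes named were picked after their values were seen.

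Alternatives were median-of-ratios and total-count scaling, no filter, only genes averaging 5 CPM or more, DESeq2 1.42.0, a replicate block, removal of a loess trend on GC content and length, a limit of 0.01 on the adjusted p, and each library left out in turn. For ratios between chains the longest transcript was the other length.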

Additional observations from a re-analysis of the deposited data

How the results depend on the processing

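The counts of members called lower ranged from 45 to 51 over the alternatives and from 46 to 49 when a library was left out. Over the 55 tested members and 14 alternatives, 764 comparisons could be made, of which 733 kept their side of the threshold, 26 lost a call (Lama4, Lamc1, Nid1, Vcan, Thbs2 and Ltbp1) and 5 gained one (Lum, Tnc and Pdgfra). After removal of the GC and length trend, 3 members and 8 other matrix genes were called higher, and the median log2 fold change was -0.84 for the members, -0.69 for basement membrane and network collagens, -0.73 for elastic fibre genes, -0.79 for crosslinking genes and -0.74 for stromal surface proteins. With library totals alone, 2 members were called higher, and the medians were -0.85 for the members, -0.74 for elastic fibre genes, -0.79 for crosslinking genes, -0.68 for proteoglycans, -0.92 for adhesive glycoproteins and -0.74 for stromal surface proteins. At an adjusted p under 0.01, 2257 genes of all and 3 other matrix genes were called higher, since fewer genes pass a stricter limit. With the longest transcript as length, the ratios under DMSO and the inhibitor were 0.55 and 0.64 for Col1a1 to Col1a2, 0.33 and 0.44 for Col5a1 to Col5a2, 1.47 and 1.42 for Col4a1 to Col4a2, 2.11 and 2.09 for Col6a1 to Col6a2, 0.086 and 0.043 for Col6a3 to Col6a1, and 0.70 and 0.50 for Lamb1 to Lamc1. The cause of the other shifts was not tested. Samples sharing a replicate number did not deviate together over genes (correlations of -0.028, -0.010 and -0.004). The labels do not say whether the numbers pair the libraries, and correlations near 0 cannot show that they do not. With the replicate block, 49 members were called lower and 1 higher, and 3510 of all genes lower and 3215 higher. Depth limits Col11a1, Mfap4, Mfap5 and Thbs2, which had few counts under the inhibitor.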

Other observations

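Serpinh1 was low in replicate 2 of both groups, at 63.7% of the lower of the other DMSO libraries and 59.6% of the lower of the other inhibitor libraries. Of 4228 genes with a mean of at least 50 CPM it was the 1 gene below 80% in replicate 2 of both groups. Of 8 heat shock genes, chosen after this was seen, 3 were called lower with the inhibitor (Hspb1, Hspa1b and Hspa8), 2 higher (Hsph1 and Hsp90aa1) and 3 were not called (Hspa1a, Dnajb1 and Hspd1). Over all tested genes 26.5% were called lower and 24.9% higher, so these counts are near those shares. Hspb1 had 73.6, 82.5 and 80.3 CPM under DMSO against 34.5, 35.1 and 32.8 CPM under the inhibitor (log2 fold change -1.21, SE 0.060), and replicate 2 was its highest library in each group. Hspa8 had 1662, 1581 and 1496 CPM under DMSO against 1206, 1177 and 1156 CPM under the inhibitor, and Hsph1 had 87.5, 77.3 and 85.3 CPM against 99.6, 100.5 and 104 CPM. Mfap3, which codes for a membrane glycoprotein linked to microfibrils, had 12.7 CPM in inhibitor replicate 1 and 97.0 and 98.9 CPM in the other inhibitor libraries, beside 80.1 to 82.3 CPM in the DMSO libraries, and was chosen for mention after its values were seen.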
